A study of Mus musculus with 21 samples.

Results

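The lungs of moribund C57BL/6 mice were compared with the lungs of C57BL/6 mice 3 weeks after the same bleomycin doses. By the labels the comparison took in 4 of the 21 arrays of the study, 2 of moribund mice and 2 of mice at 3 weeks. Bleomycin, a chemotherapy agent that cleaves DNA and is toxic to lung, was delivered here from an osmotic minipump. Each group had 1 male pool, dosed at 100 mg/kg, and 1 female pool, dosed at 125 mg/kg, so the 2 groups were matched for sex and dose, while sex and dose cannot be told apart. No time was given for the moribund mice. Control lungs of C57BL/6, whose treatment the labels do not describe, were also 1 male and 1 female pool, and a single female pool at 125 mg/kg stood at 6 weeks. The RNA of whole right lungs was pooled over 3 to 5 mice per array, so the spread given here is that between pools, with n = 2 per group, and sick mice of 1 pool could not be looked at singly. The remaining arrays were of A/J and C3H/HeJ lungs, which enter the shared estimate of spread and 1 comparison of later changes. A/J had 4 arrays at 3 weeks, at 80 and 100 mg/kg in males and 100 and 125 mg/kg in females. At 6 weeks A/J had 2, at 100 mg/kg in the male and 125 mg/kg in the female. C3H/HeJ had 2 arrays at each of these times, at 100 mg/kg in the male and 125 mg/kg in the female. Both strains also had control arrays.

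Levels are log2 of the normalised intensity plus 16, and within a group the male pool is given before the female pool. The deposited intensities of the 4 arrays had medians of 104.2 and 78.7 in moribund lungs and 85.7 and 100.0 at 3 weeks. The 3′ to 5′ ratio of the Gapdh probe sets, a measure of RNA integrity that is higher in degraded RNA, was 0.77 and 0.89 in moribund lungs, 1.0 and 1.06 at 3 weeks, and 0.85 and 0.93 in controls. The sex-linked genes went with the labels: Eif2s3y read 6.85 in the moribund male pool and 7.19 in the 3 week male pool, and 4.09 and 4.34 in the moribund and the 3 week female pools. The X inactivation transcript Xist was high in the female pools, at 9.29 when moribund, 9.84 at 3 weeks and 10.77 in the control. The lung markers Sftpc and Scgb1a1 were among the brightest probe sets of these arrays, at 12.56 to 12.93.

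Interferons, released when cells sense viral or displaced self nucleic acid, act through STAT and IRF transcription factors on promoters that carry an interferon-stimulated response element, and they induce antiviral enzymes, guanylate-binding proteins and immunity-related GTPases. The cell cycle programme comprises the MCM helicase that opens replication origins, the enzymes that make deoxynucleotides and the mitotic motor and checkpoint proteins. Injured lung is known for proliferation of macrophages, epithelium and fibroblasts during repair, and for deposition of collagen.

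Of 9079 genes tested, 0% passed in either direction: no gene differed between moribund and 3 week lungs at an adjusted p under 0.05 in limma, and the smallest adjusted p was 0.0544. An unadjusted p under 0.05 was reached by 886 genes, 9.76% of those tested, of which 329 (3.62%) were higher and 557 (6.14%) lower in moribund lungs. An adjusted p under 0.10 was reached by 10 genes, 0.11% of all. Numbl was higher, and Lst1, Mcm2, Myo1f, Zmat5, Ndn, Ptch1, Wdr6, Gid4 and Gbp7 were lower. The median SE of a change was 0.20 on the log2 scale, with 2 pools in each group. With the deposited scaling kept, the median change over all genes was -0.14, and with 1 common median per array it was -0.11, against -0.02 after quantile normalisation, so list medians are read against the median of all genes.

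The male and the female pair shared little of their shifts. Across genes, the moribund minus 3 week value of the male pair and that of the female pair correlated at r = -0.03 over 9079 genes, which share their arrays and are not independent. Of all genes, 2415 or 26.6% were lower in both pairs, 2056 or 22.6% were higher in both and 50.6% moved in opposite directions. A shift of over 0.5 on the log2 scale in both pairs, which is described here without a test, was seen downward in 97 genes, 1.07% of all, and upward in 56 genes, 0.617%, while 204 genes or 2.25% shifted by over 0.5 in opposite directions. The SD over genes of the moribund minus 3 week shift was 0.37 in the male pair and 0.42 in the female pair. Between the female and the male pool it was 0.42 in moribund lungs, 0.30 at 3 weeks and 0.31 in controls. By this measure the moribund pools lay about as far from each other as from the 3 week pools. The moribund male pool lay closer to the 6 week female pool, at 0.32.

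**Figure D1:**
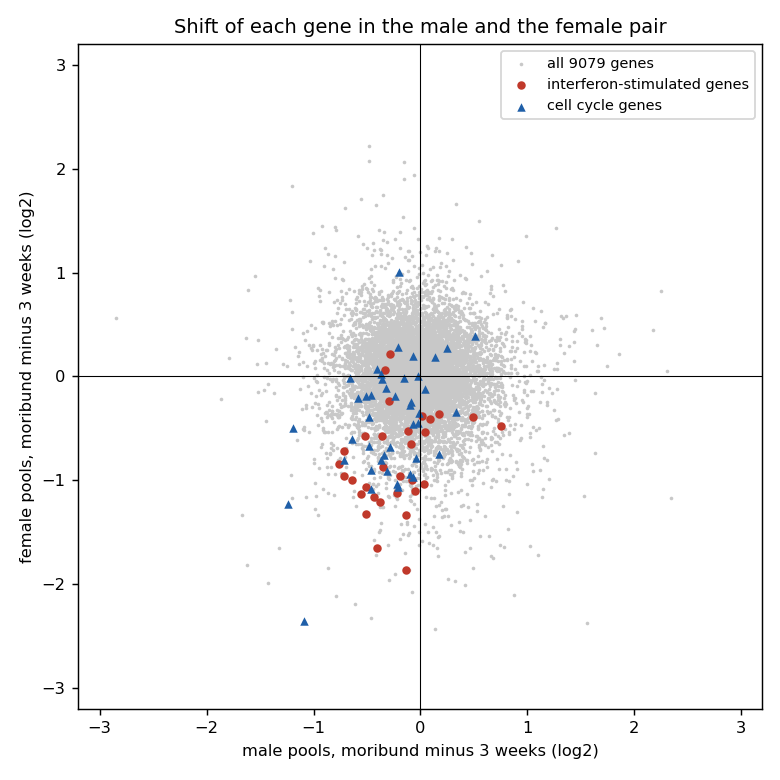
Each grey point is 1 of 9079 genes, placed by its moribund minus 3 weeks difference in the male pair (horizontal axis, log2) and the female pair (vertical axis, log2). Red circles are the 31 interferon-stimulated genes and blue triangles the 43 cell cycle genes tested, of which 22 and 31 lie at the lower left, where both pairs are lower.

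The interferon-stimulated genes were the list with the lowest median in moribund lungs. Of 40 listed genes 31 were tested, and 22 of these were lower in both pairs and none was higher in both, against 26.6% and 22.6% of all genes. None passed at an adjusted p under 0.05, and 18 had an unadjusted p under 0.05, all of them lower, against 6.14% of all genes. The median change was -0.57 on the log2 scale, with -0.29 in the male pair and -0.88 in the female pair, where the median over all genes was -0.02. In 20 of the 31 genes both moribund pools lay below both 3 week pools, which held for 20.6% of all genes, and in none did both lie above, against 17.4% of all. The list's median level was 8.27 and 8.07 in moribund lungs, 8.59 and 8.87 at 3 weeks, and 7.90 and 8.04 in controls. At the moribund stage 10 genes were above both control pools, against 24 at 3 weeks. The share of all genes above both controls was not counted, so these counts only describe the list.

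Of the list, 8 members (against 1.07% of all genes) were lower by over 0.5 in both pairs: Irf7, Bst2, Gbp7, Igtp, Ifi47, Rsad2, Ifi27l2a and Rtp4. The RefSeq promoter table of build GRCm38.p6 held 25 of the 31 tested members, among them 6 of these 8. The window read was the 250 bases before the annotated start, on the strand of the gene, and the letters searched, on both strands, were 2 copies of GAAA with any 2 bases between them, the core of the interferon-stimulated response element. They occurred in 2.98% of 32851 promoter windows. Members were counted by gene instead, with a match in any window of the gene. A match was found in 14 of the 25 tested members (56%). It was found in 4 of the 6 (66.7%) and in 10 of the other 19 (52.6%). The windows of Irf7 and Ifi47 did not hold these letters. The 4 promoters that did are shown to let the element be seen in genes lower in both pairs. Capitals mark the matching letters, which read GAAA on the gene's strand and TTTC where the match is on the opposite one. In Bst2 the capitals cover 2 overlapping matches.
Igtp, chr11:58199306-58199555, + strand: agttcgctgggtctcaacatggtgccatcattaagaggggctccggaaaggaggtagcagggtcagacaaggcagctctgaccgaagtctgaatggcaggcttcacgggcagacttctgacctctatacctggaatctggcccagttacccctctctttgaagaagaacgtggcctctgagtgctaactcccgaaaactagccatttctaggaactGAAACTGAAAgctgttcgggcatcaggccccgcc
Gbp7, chr3:142530086-142530335, + strand: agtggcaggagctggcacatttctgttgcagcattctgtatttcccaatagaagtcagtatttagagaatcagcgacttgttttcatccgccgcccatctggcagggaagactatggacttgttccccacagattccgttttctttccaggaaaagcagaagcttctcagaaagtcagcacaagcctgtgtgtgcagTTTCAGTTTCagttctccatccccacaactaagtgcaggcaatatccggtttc
Rsad2, chr12:26456453-26456702, - strand: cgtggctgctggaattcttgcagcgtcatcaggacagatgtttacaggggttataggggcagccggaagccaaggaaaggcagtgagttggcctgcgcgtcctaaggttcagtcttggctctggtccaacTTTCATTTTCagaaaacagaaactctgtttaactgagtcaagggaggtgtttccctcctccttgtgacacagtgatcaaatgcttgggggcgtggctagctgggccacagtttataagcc
Bst2, chr8:71537473-71537722, - strand: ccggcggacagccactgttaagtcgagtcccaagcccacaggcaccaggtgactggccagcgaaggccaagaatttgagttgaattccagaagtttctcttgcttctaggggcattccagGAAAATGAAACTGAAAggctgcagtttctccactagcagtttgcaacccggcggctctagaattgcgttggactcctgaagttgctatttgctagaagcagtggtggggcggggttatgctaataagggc

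Irf7, the transcription factor that amplifies type I interferon induction, had levels of 8.55 and 8.35 in moribund lungs, 9.10 and 9.48 at 3 weeks, and 7.09 and 7.56 in controls. Both moribund pools were below both 3 week pools and above both controls, and the difference from 3 weeks was -0.84 (SE 0.22, limma adjusted p = 0.243). Bst2, which tethers budding virus to the cell surface, read 7.31 and 7.37 in moribund lungs, 8.03 and 8.32 at 3 weeks and 6.84 and 6.96 in controls, a difference of -0.84 (SE 0.23, adjusted p = 0.270). Ifi27l2a, a small mitochondrial interferon-induced protein, read 9.57 and 9.67 in moribund lungs and 10.22 and 10.67 at 3 weeks, with controls at 8.80 and 9.80. These 3 genes were above the controls at 3 weeks and closer to them in moribund lungs.

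The GTPases behaved otherwise against the controls. Gbp7, a guanylate-binding protein, read 7.83 and 7.82 in moribund lungs, 8.59 and 8.66 at 3 weeks and 8.37 and 8.50 in controls. Its difference of -0.80 (SE 0.16, adjusted p = 0.0978) had the smallest p of the list, and a second probe set of Gbp7 gave -0.43. Igtp, an immunity-related GTPase, read 8.27 and 8.15 in moribund lungs, 8.99 and 8.87 at 3 weeks and 8.72 and 8.63 in controls, a difference of -0.71 (SE 0.17, adjusted p = 0.243). Ifi47, another GTPase of that family, read 8.65 and 8.16 in moribund lungs, 9.16 and 9.22 at 3 weeks and 8.58 and 8.93 in controls. Opposite pairs were seen in 9 members, among them Stat2, the signal transducer of type I interferon, at 0.75 in the male and -0.47 in the female pair, and 0.78 and -0.91 by a second probe set. For Gbp7 and Igtp the moribund pools were thus the lowest of the 3 groups, with no overlap. In Gbp7 the 6 week female pool read 8.05, also below both 3 week pools and both controls.

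Zbp1 and Oasl2 differed more in the female than in the male pair. Zbp1, a sensor of left-handed nucleic acid, and Oasl2, of the oligoadenylate synthetase family, were picked after their values were seen. Zbp1 read 7.28 and 6.05 in moribund lungs, against 7.69 in each 3 week pool, and 5.78 and 5.90 in controls. Oasl2 read 8.27 and 7.28 in moribund lungs, 8.40 and 9.14 at 3 weeks, and 7.43 and 7.65 in controls. In both genes the male moribund pool was near the 3 week male pool and the female moribund pool was near the controls. The antiviral enzyme Rsad2 read 8.96 and 8.55 in moribund lungs, 9.47 and 9.88 at 3 weeks, and 9.63 and 9.01 in controls. Rtp4, a chaperone of receptors, read 9.39 and 8.72 in moribund lungs and 9.91 and 9.29 at 3 weeks, so its pairs were alike while the groups overlapped. From the chemokine list, Cxcl10, which draws T cells and is induced by interferon, read 7.21 and 6.97 in moribund lungs, 8.12 and 8.06 at 3 weeks and 5.11 and 5.27 in controls, a difference of -1.0 (SE 0.32, adjusted p = 0.369). Leaving out the moribund female pool put the median of the list at -0.28, and leaving out the moribund male pool put it at -0.84. In the fit without the moribund male pool 5 members were called lower, among 52 genes called of all, 0.573%. The moribund female pool alone then stood for its group and was assumed to vary like the other groups. No member was called in the other fits that left out 1 of the 4 pools.

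**Figure D2:**
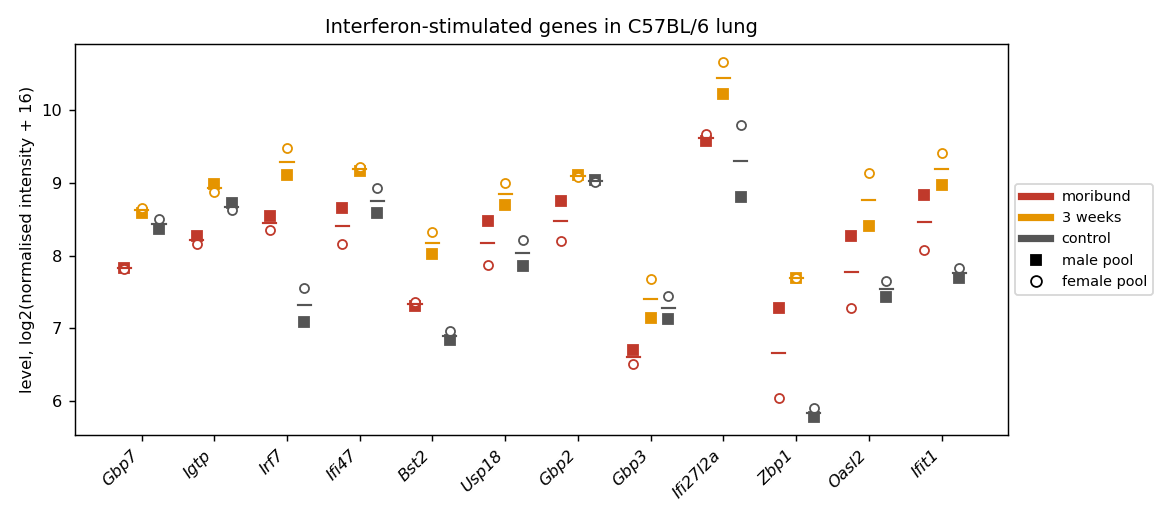
Levels (vertical axis, log2 of normalised intensity plus 16) of the 12 interferon-stimulated genes with the smallest p, in moribund (red), 3 week (orange) and control (grey) C57BL/6 lungs. Filled squares are male and open circles female pools, and lines are the means of 2 pools. The moribund pools lie below the 3 week pools in these genes, and for Irf7 and Bst2 above the controls.

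Cell cycle and DNA replication genes were the list with the next lowest median. Of 60 listed genes 43 were tested; 31 were lower in both pairs and 3 were higher in both, against 26.6% and 22.6% of all genes. The 3 were the mitotic kinesin Kif2c (0.51 in the male and 0.39 in the female pair), the transcription factor Foxm1 (0.25 and 0.27) and the reductase subunit Rrm1 (0.14 and 0.19). Second probe sets of Kif2c and Rrm1 had the opposite sign, at -0.04 and -0.18. None passed the test, and 15 had an unadjusted p under 0.05, all lower, against 6.14% of all genes. The median change was -0.32, with -0.24 in the male and -0.35 in the female pair. Both moribund pools lay below both 3 week pools in 28 genes, against 20.6% of all genes. The median level was 6.91 and 6.89 in moribund lungs, 7.24 and 7.43 at 3 weeks and 6.48 and 6.56 in controls. In moribund lungs 31 genes were above both controls, against 40 at 3 weeks, again without a count over all genes. Leaving out any of the 4 pools kept the median between -0.25 and -0.36.

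Mcm2, a subunit of the replicative helicase, read 6.93 and 6.53 in moribund lungs, 8.02 and 8.88 at 3 weeks and 7.0 and 6.92 in controls. The difference of -1.72 (SE 0.31, adjusted p = 0.0544) was over 2 times that of a second Mcm2 probe set, at -0.71. Both moribund pools were at the level of the controls. Mki67, the marker of cycling cells, read 6.54 and 6.81 in moribund lungs, 7.78 and 8.04 at 3 weeks and 6.24 and 6.20 in controls, a difference of -1.23 (SE 0.27, adjusted p = 0.169) that was nearly the same in both pairs. Rrm2, the inducible subunit of ribonucleotide reductase, read 7.35 in each moribund pool, 8.07 and 8.15 at 3 weeks and 6.54 and 6.66 in controls. Its difference was -0.76 (SE 0.21, adjusted p = 0.270), and its other probe sets gave -0.69 and -0.30. Mki67 and Rrm2 in moribund lungs were thus between the 3 week and the control levels. The 6 week female pool read 7.23 in Mcm2 and 7.14 in Mki67, also below the 3 week female pool.

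Cenpa, the centromeric histone variant, was the remaining member lower by over 0.5 in both pairs, at 5.85 and 6.03 in moribund lungs and 6.49 and 6.64 at 3 weeks. Top2a, which untangles DNA before mitosis and was picked after its values were seen, read 7.45 and 7.06 in moribund lungs, 7.66 and 8.12 at 3 weeks and 6.67 and 7.05 in controls. Dck, the deoxycytidine salvage kinase, stood outside the list. It was among the 12 largest falls of the genes shifted by over 0.5 in both pairs. Its levels were 6.39 and 5.96 in moribund lungs, 7.34 and 7.29 at 3 weeks and 6.3 and 6.31 in controls (difference -1.15, SE 0.26, limma adjusted p = 0.195). Dck in the 6 week female pool read 6.20. In bulk lung RNA, fewer cells of a type and less RNA per cell cannot be told apart. The Gapdh ratio was lower in the moribund than in the 3 week pools of both pairs; with it as a covariate the medians were -0.51 for the interferon list and -0.26 for the cell cycle list.

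**Figure D3:**
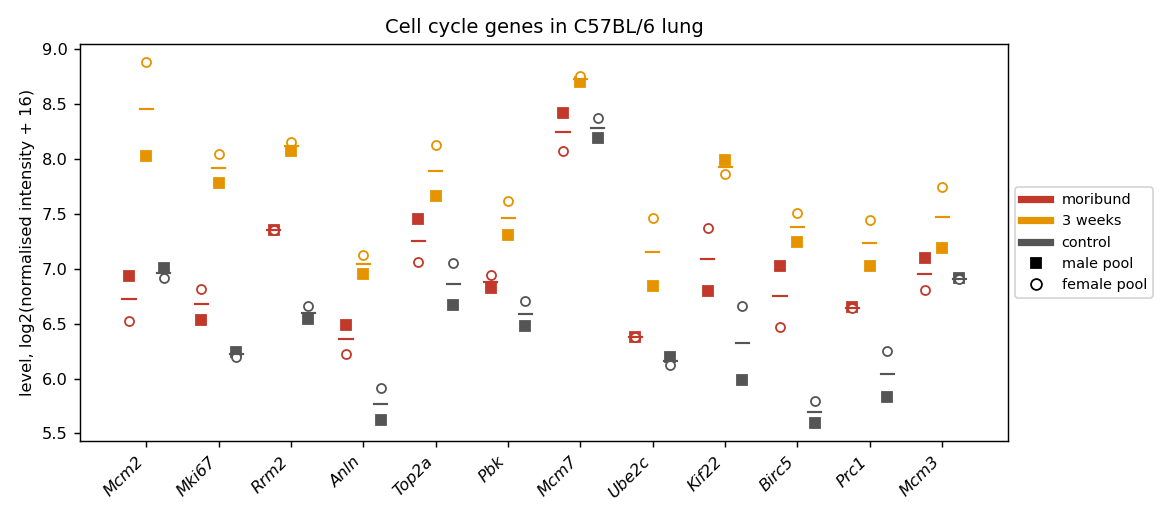
Levels (vertical axis, log2 of normalised intensity plus 16) of the 12 cell cycle genes with the smallest p in moribund (red), 3 week (orange) and control (grey) C57BL/6 lungs, with squares for male pools, circles for female pools and lines for means of 2 pools. The moribund pools lie below the 3 week pools in each, and Mcm2 is at the control level.

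T and natural killer cell genes had pairs on opposite sides. Of 19 tested, 6 were lower in both pairs and 2 higher, and the median was 0.09 in the male and -0.52 in the female pair. Gzma, the cytotoxic granule protease granzyme A, read 6.48 and 6.23 in moribund lungs, 7.09 and 8.42 at 3 weeks and 8.45 and 8.40 in controls, a difference of -1.40 (SE 0.36, adjusted p = 0.243). Cd3d and Cd247, chains of the T cell receptor complex, differed by -0.96 and -0.65, and Cd3d in the moribund female pool was 5.34, below the 5.87 at which the dimmest probe sets were left out. The summed intensity of the list was 2007 and 1449 in moribund lungs, 1891 and 2019 at 3 weeks and 2006 and 1817 in controls. Antigen presentation genes split the same way, with a median of 0.29 in the male and -0.48 in the female pair; the class II peptide loader H2-DMa read 8.61 and 7.63 in moribund lungs and 8.67 and 9.07 at 3 weeks. The part that these cells' shares had in the interferon genes was not tested.

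The immunoglobulin genes Iglv1 and Jchain were higher in moribund lungs and low at 3 weeks. Iglv1, a lambda light chain variable segment, read 6.58 and 6.60 in moribund lungs, 4.33 and 5.78 at 3 weeks and 6.05 and 7.01 in controls (difference 1.53, SE 0.37, adjusted p = 0.243). Both 3 week levels were below the dim limit of 5.87, near background, and the difference ran from 0.79 to 2.50 over the alternatives. Jchain, which joins polymeric immunoglobulin, read 8.48 and 7.97 in moribund lungs, 7.12 and 7.39 at 3 weeks and 7.64 and 8.46 in controls (0.97, SE 0.23, adjusted p = 0.217). The 6 week female pool read 7.29 in Iglv1 and 8.85 in Jchain, above both moribund pools. Ighm, the mu heavy chain, read 9.94 and 8.64 in moribund lungs and 7.63 and 8.59 at 3 weeks, a difference of 2.30 in the male and 0.05 in the female pair, and its 7 probe sets gave changes of 0.08 to 1.18. Immunoglobulin segments are near copies of each other, and probe sets can cross-react. The B cell receptor chain Cd79a read 6.92 and 6.71 in moribund lungs, 6.36 and 6.75 at 3 weeks and 8.02 and 7.82 in controls. Over the 13 B and plasma cell genes tested, the median was 0.56 in the male and -0.25 in the female pair, with 2 higher and none lower in both.

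Macrophage and neutrophil lists stayed near 0 as a whole. Of 32 macrophage genes 11 were higher and 2 lower in both pairs, with a median of 0.05, and of 15 neutrophil genes 5 were higher and 3 lower, with a median of 0.04. With the deposited scaling these medians were -0.11 and -0.03, beside -0.14 over all genes. Mrc1, the mannose receptor, read 10.13 and 10.47 in moribund lungs, 10.02 and 9.42 at 3 weeks and 8.81 and 8.61 in controls (0.58, SE 0.17, limma adjusted p = 0.308). Cd36, also of the macrophage list, was lower in both pairs (-0.26, SE 0.12), and its other probe sets gave 0.19 and -0.34. Chil1, of the neutrophil list, differed by 0.41 in the male and -2.01 in the female pair. Ctsl, the lysosomal protease cathepsin L, read 11.33 and 11.13 in moribund lungs, 10.82 and 10.65 at 3 weeks and 10.35 and 10.15 in controls (0.49, SE 0.13, adjusted p = 0.243), with no overlap of the groups. C5ar1, the receptor of the complement fragment C5a, read 7.96 and 8.25 in moribund lungs and 7.58 and 7.27 at 3 weeks. Ctsl came from the lysosome list, where 5 of 34 genes were higher and 9 lower in both pairs, with a median of -0.03. C5ar1 came from the complement list, where 5 of 17 were higher and 4 lower, with a median of -0.02. Gpnmb, a lysosomal glycoprotein of lipid-laden macrophages, read 10.31 and 10.00 in moribund lungs, 10.18 and 9.99 at 3 weeks and 6.44 and 6.56 in controls, and so differed from 3 weeks by 0.07 (SE 0.19).

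The leukocyte genes Lst1 and Myo1f were lower in both pairs. Lst1, a leukocyte-specific transcript of the MHC region, read 6.96 and 6.12 in moribund lungs, 7.75 and 8.23 at 3 weeks and 6.90 and 7.10 in controls (-1.45, SE 0.26, adjusted p = 0.0544). Myo1f, an unconventional myosin of leukocytes, read 5.51 and 5.17 in moribund lungs, 6.94 and 7.15 at 3 weeks and 5.17 and 5.46 in controls (-1.70, SE 0.28, adjusted p = 0.0544). Both were above the controls at 3 weeks. Lst1 was near its control in the moribund male pool and below it in the moribund female pool. Myo1f was near the controls in moribund lungs, where it was under the 5.87 of the dim limit. The 6 week female pool, not labelled moribund, read 6.92 in Lst1 and 6.19 in Myo1f, also below the 3 week female pool. Ccr2, the receptor that brings monocytes into tissue, read 7.95 and 7.46 in moribund lungs, 8.25 and 8.42 at 3 weeks and 6.83 and 7.02 in controls (-0.63, SE 0.24), but its other probe sets gave 0.01 and -0.12.

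The other genes among the 12 largest shifts in each direction belong to no one list. Higher in moribund lungs were Numbl, an adaptor related to Numb that inhibits Notch signalling, Rassf1, a Ras-association tumour suppressor, Neurl4, Deptor, an inhibitor of the kinase mTOR, Bmp7, a bone morphogenetic protein, Tom1l2, Inppl1, an inositol phosphatase, Atg2a, a lipid transfer protein of autophagy, Rasd1, a dexamethasone-induced Ras protein, and Nt5e, which makes adenosine from AMP. Bmp7, Tom1l2 and Rasd1 were below the dim limit of 5.87 in both 3 week pools. Numbl read 7.68 and 7.84 in moribund lungs, 6.69 and 6.49 at 3 weeks, 7.56 in the 6 week pool and 7.17 and 7.19 in controls (1.17, SE 0.20, adjusted p = 0.0544). Its moribund pools were the highest of the groups and its 3 week pools the lowest. Rassf1 read 8.19 and 7.86 in moribund lungs, 6.92 and 6.43 at 3 weeks and 6.01 and 6.05 in controls (1.35, SE 0.36, adjusted p = 0.261). Deptor read 8.57 and 7.77 in moribund lungs, 7.12 and 7.18 at 3 weeks and 8.87 and 8.37 in controls, and Neurl4 read 7.17 and 7.36, against 5.48 and 6.80 at 3 weeks and 7.48 and 7.84 in controls. In Deptor and Neurl4 the moribund pools were thus nearer to the controls than the 3 week pools were. Nt5e read 8.96 and 8.60 in moribund lungs, 8.21 and 7.53 at 3 weeks and 8.34 and 7.20 in controls.

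Lower were Stk10, a lymphocyte kinase, Coq4, of coenzyme Q synthesis, Zmat5, a component of the minor spliceosome, Zdhhc1, a palmitoyltransferase, Abca2, a lipid transporter, and Banp. Stk10 read 5.60 and 5.66 in moribund lungs and 7.22 and 7.47 at 3 weeks, Coq4 5.34 and 5.06 against 7.01 and 6.40, and Zmat5 5.40 and 5.20 against 6.72 and 6.85. The 6 week female pool read 7.22 in Stk10, 6.88 in Coq4 and 6.44 in Zmat5, above both moribund pools. All 6 genes were below the dim limit of 5.87 in both moribund pools, where a probe set is near its background, and the sizes of these changes depend on the offset. Zmat5 was called at adjusted p = 0.0221 with an offset of 1.

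Among signalling genes, Ptch1, the receptor and target of hedgehog, read 7.41 and 7.60 in moribund lungs, 8.12 and 8.37 at 3 weeks and 8.62 and 8.77 in controls (-0.74, SE 0.14, adjusted p = 0.0848). Ndn, the imprinted growth suppressor necdin, read 6.74 and 7.16 in moribund lungs, 7.72 and 8.31 at 3 weeks and 7.32 and 7.59 in controls (-1.06, SE 0.20, adjusted p = 0.0848). Wdr6, a WD repeat protein, and Gid4, a recognition subunit of an E3 ligase, differed by -0.77 and -0.83, but a second Wdr6 probe set gave 0.16, and those of Gid4 gave 0.11 and -0.19. The other 6 Ndn probe sets gave changes of -0.81 to 0.28. Ltbp3, which holds latent TGF-beta in the matrix, differed by -0.53 (SE 0.14, adjusted p = 0.243), and Tgfb1 itself by -0.04 (SE 0.25). The list of TGF-beta, activin and BMP signalling had a median of 0.00 over 39 genes, with 9 higher and 9 lower in both pairs.

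Matrix genes had small differences between moribund and 3 week lungs. Of 26 fibrillar collagen and associated genes, 5 were higher and 4 lower in both pairs, with a median of 0.09, which was -0.06 with the deposited scaling. Col1a1, of type I collagen, read 11.08 and 11.14 in moribund lungs, 10.79 and 10.77 at 3 weeks and 9.42 and 9.57 in controls (0.33, SE 0.23, adjusted p = 0.696). Col1a2, the partner chain, read 11.86 and 11.78 in moribund lungs, 11.50 in each 3 week pool and 10.86 and 10.90 in controls (0.32, SE 0.11, adjusted p = 0.395). In both chains the moribund pools were above the 3 week pools without overlap by these probe sets. A second Col1a2 probe set gave -0.06 in the male and 0.55 in the female pair, and a second Col1a1 probe set 0.28 and 0.74. Col3a1 differed by -0.11 (SE 0.18; 0.07 by a second probe set) and the fibronectin gene Fn1 by 0.06 (SE 0.18). Dcn, the collagen-binding proteoglycan decorin, read 10.03 and 9.10 in moribund lungs, 9.08 and 8.71 at 3 weeks and 10.31 and 10.14 in controls (0.67, SE 0.21). Fbln2, a fibulin of injured vessels and elastic tissue, read 8.72 and 8.98 in moribund lungs, 8.63 and 7.94 at 3 weeks and 7.16 and 7.43 in controls, and the basement membrane proteoglycan Hspg2 differed by 0.54 (SE 0.18), while its second probe set gave -0.36 and was lower in both pairs.

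Several injury genes had pairs on opposite sides. Tnc, the injury matrix protein tenascin C, read 8.68 and 10.25 in moribund lungs, 9.49 and 9.10 at 3 weeks and 5.88 and 6.19 in controls. Mmp12, the macrophage elastase, read 9.31 and 7.30 in moribund lungs, 8.21 and 9.02 at 3 weeks and 4.96 and 5.73 in controls. Timp1, the metalloproteinase inhibitor, read 10.41 and 11.16 in moribund lungs, 10.72 and 9.98 at 3 weeks and 7.12 and 6.86 in controls. Saa3, a local acute phase protein, read 9.49 and 10.52 in moribund lungs, 9.93 and 9.29 at 3 weeks and 5.60 and 6.20 in controls. The metallothioneins Mt1 and Mt2, which bind zinc and answer glucocorticoid and metals, were higher by 1.94 and 1.90 in the female pair and differed by -0.06 and -0.15 in the male pair. Mt2 read 11.15 and 12.22 in moribund lungs, 11.30 and 10.32 at 3 weeks and 8.55 and 8.24 in controls. In these genes every moribund and 3 week pool was above both controls, and the moribund and 3 week pools overlapped. Cdkn1a, the p53 target p21, differed by 0.01 (SE 0.20; -0.23 by a second probe set), at 10.82 and 10.66 in moribund lungs, 10.70 and 10.74 at 3 weeks and 8.27 and 8.15 in controls. Blmh, which inactivates bleomycin, read 7.96 and 8.31 in moribund lungs and 8.49 and 8.56 at 3 weeks.

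Epithelial genes gave a mixed picture. Krt18, a simple keratin, read 10.48 and 10.40 in moribund lungs, 10.02 and 9.89 at 3 weeks and 9.82 and 9.48 in controls (0.49, SE 0.17, adjusted p = 0.393). Cldn4, a tight junction claudin of injured alveoli, read 8.79 and 8.12 in moribund lungs, 7.73 and 7.47 at 3 weeks and 7.23 and 6.81 in controls (0.86, SE 0.33, adjusted p = 0.417). In these 2 genes the moribund pools were the highest of the 3 groups. Of the 16 simple keratin and injured epithelium genes tested, 6 were higher and 1 lower in both pairs. The list had a median of -0.10 in the male pair, with 9 genes lower. In the female pair it was 0.36, with 14 higher. Foxj1, the ciliogenesis factor, and Spock2, a proteoglycan of type 1 cells, differed by 1.28 and 1.14 in the male pair. In the female pair they differed by 0.13 and -0.07. Of 10 ciliated cell genes tested, 3 were higher and 4 lower in both pairs, with a median of -0.19. Rsph1 and Tuba1a of that list differed by -0.57 and -0.26. The 17 type 1 cell genes had 4 higher and 2 lower in both pairs, with a median of -0.04. The 27 type 2 cell genes had medians of 0.17 in the male and -0.25 in the female pair, with 22 higher in the male and 22 lower in the female pair. Sftpc, the surfactant protein C gene, and Scgb1a1, the club cell secretoglobin, lay at the top of the scale, where differences of -0.08 and 0.04 say little.

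The 42 endothelial genes had medians of 0.12 in the male and -0.22 in the female pair. Aplnr, the apelin receptor, read 8.40 and 7.73 in moribund lungs, 8.48 and 9.80 at 3 weeks and 10.01 and 10.17 in controls, a difference of -1.07 (SE 0.29, adjusted p = 0.261) that came from the female pair. Sox17, an arterial transcription factor, read 8.37 and 7.25 in moribund lungs and 8.26 and 8.87 at 3 weeks, and a second probe set gave 0.13 against the -0.75 of this one. Lipofibroblast genes split likewise, with medians of 0.13 and -0.34 in the male and female pair, and skeletal muscle genes with 0.39 and -0.29. Proteasome subunits split the other way, at -0.16 and 0.23, as did mitochondrial respiratory chain subunits, at -0.21 and 0.04. Fabp4, a fatty acid carrier of fat, endothelium and macrophages, was higher by 0.84 and 0.64 in the pairs, while its other probe sets gave 0.00 and 0.21.

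Immediate early, acute phase and glucocorticoid-responsive genes had many members higher in both pairs. The acute phase and glucocorticoid-responsive medians were higher in the female than in the male pair. Of 31 immediate early genes 15 were higher and 2 lower in both, with a median of 0.21, against 22.6% of all genes higher in both. Their median was 0.22 in the male and 0.20 in the female pair. Nr4a1, an orphan nuclear receptor, read 9.34 and 8.79 in moribund lungs, 7.90 and 8.46 at 3 weeks and 10.04 and 8.49 in controls. Fos read 10.34 and 9.89 in moribund lungs, 9.19 and 9.41 at 3 weeks and 9.87 and 8.10 in controls, and Fosb 6.58 and 6.86, against 6.19 and 6.05 at 3 weeks and 6.21 and 5.74 in controls. The 2 control pools differed by over 1.5 in Nr4a1 and in Fos, more than the moribund pools did from those at 3 weeks. Such genes are induced within minutes of handling, and the part of tissue collection was not tested. Of 15 acute phase genes 7 were higher and 2 lower in both pairs, with a median of 0.22. The male pair had a median of -0.02, with 8 genes lower, and the female pair 0.27, with 13 higher. Of 30 glucocorticoid-responsive genes 13 were higher and 2 lower in both pairs, with a median of 0.23 (0.06 in the male and 0.30 in the female pair). Tgm2, transglutaminase 2, read 11.29 and 11.33 in moribund lungs, 10.80 and 11.02 at 3 weeks and 11.01 in each control (0.40, SE 0.11, adjusted p = 0.261), while 3 of its 4 other probe sets gave changes of -0.09 to -0.24.

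**Figure D4:**
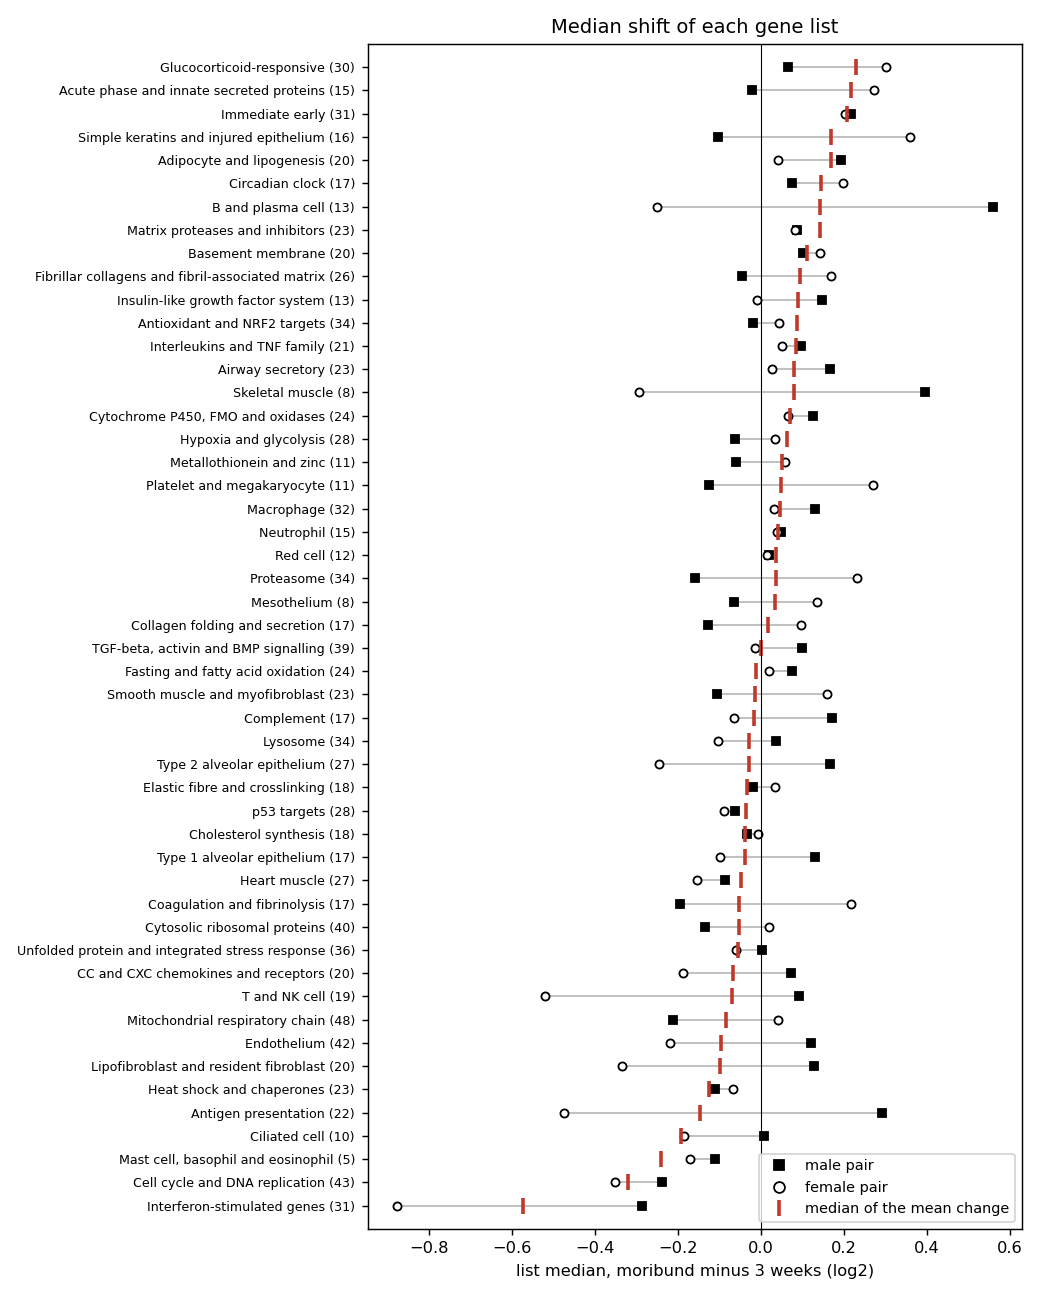
Median moribund minus 3 weeks difference (horizontal axis, log2) of each of 50 gene lists, with the number of genes tested in brackets; squares are the male pair, circles the female pair and red bars the median of the mean change. Interferon-stimulated and cell cycle genes lie lowest with both pairs below 0, while T and NK cell and antigen presentation genes have the pairs on opposite sides.

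To test whether later changes differed between strains, the C57BL/6 change from 3 weeks was set against the mean change between 3 and 6 weeks in A/J and C3H/HeJ lungs given bleomycin. Strain, stage and time cannot be told apart in this contrast. The A/J arrays at 3 weeks included lower doses than those at 6 weeks, so the A/J change was not matched for dose. Of 9079 genes 12 were called higher (0.132%) and 31 lower (0.341%) in the C57BL/6 change. The interferon list had 0 calls and a median difference of -0.38. The cell cycle list had 1 call, Mcm2, and a median difference of 0.00, with a median of -0.27 for the change in the other strains.

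The higher calls included genes with small changes in C57BL/6 and negative ones in the other strains. Saa3 differed by 2.23 (SE 0.38, limma adjusted p = 0.0223), from 0.39 in C57BL/6 and -1.83 in the other strains. Lcn2, the siderophore-binding lipocalin of neutrophils and epithelium, differed by 1.61 (SE 0.16, adjusted p = 0.000128), from 0.27 and -1.33, and read 11.11 and 11.43 in moribund lungs, 10.95 and 11.04 at 3 weeks and 9.10 and 9.26 in controls. Timp1 differed by 1.45 (SE 0.31, adjusted p = 0.0458), from 0.43 and -1.02. Marco, a scavenger receptor of alveolar macrophages, differed by 2.40 (SE 0.29, adjusted p = 0.000992), from 0.36 and -2.03, at a low level of 6.18 and 6.66 in moribund C57BL/6 lungs and 5.96 and 6.15 at 3 weeks. Col1a2, Ctsl and Tgm2 differed by 0.68, 0.74 and 0.74, and in these 3 genes the C57BL/6 change was positive and the other strains' negative.

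Most of the lower calls, but not all, were made more by the C57BL/6 change. Mcm2 differed by -1.84 (SE 0.37, adjusted p = 0.0420), from -1.72 in C57BL/6 and 0.12 in the other strains, and Lst1 by -1.46 (SE 0.31, adjusted p = 0.0458), from -1.45 and 0.00. Ptch1 differed by -1.04 (SE 0.17, adjusted p = 0.0178), from -0.74 and 0.30, and Zdhhc1 by -2.34 (SE 0.43, adjusted p = 0.0366), from -1.36 and 0.99. Myh6, the cardiac myosin of the muscle sleeves of lung veins, differed by -1.30, from -0.57 and 0.73, with the larger part in the other strains. The count of calls was fragile. Leaving out the C3H/HeJ female array at 6 weeks, whose Gapdh ratio of 2.08 was the highest of the study, left 2 calls. This alternative was chosen after the data were seen. With the Gapdh ratio as a covariate 1 call remained, and with array weights 2. In each of these fits the remaining calls were higher ones, and 0 lower calls remained. Leaving out 1 of the 4 C57BL/6 pools gave 4 calls without the 3 week female pool, 9 without the 3 week male pool and 109 without the moribund male pool.

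**Figure D5:**
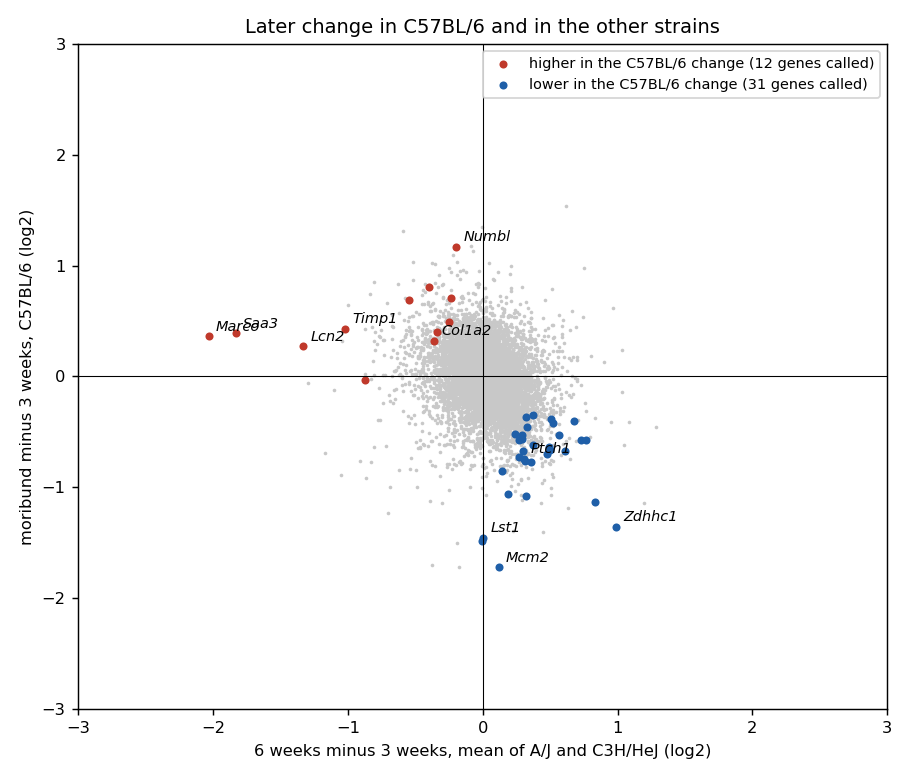
Each point is 1 of 9079 genes, placed by the change between 3 and 6 weeks in A/J and C3H/HeJ lungs (horizontal axis, mean of both strains, log2) and the moribund minus 3 weeks change in C57BL/6 (vertical axis, log2). Red marks the 12 genes called higher and blue the 31 called lower in the C57BL/6 change; Saa3, Lcn2, Timp1 and Marco lie far to the left, near 0 in C57BL/6.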

How the data were processed

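RNA of pooled right lungs was measured on 21 mouse Affymetrix arrays. The deposited values were linear intensity per probe set; which software, background correction and scaling the authors used is not stated in any label. Of 22690 probe sets 64 controls were left out, and 20380 of the rest had 1 gene symbol in the platform annotation. Values were quantile normalised and turned into log2 of intensity plus 16, the dimmest 33.3% of probe sets were left out (levels under 5.87), and the brightest probe set per gene gave 9079 genes. In R 4.3.3 with limma 3.58.1, group and sex were fitted to all 21 arrays (10 residual degrees of freedom, eBayes with trend), with two-sided p-values adjusted by Benjamini and Hochberg over all genes. The number of arrays limits the precision. Calls were tested on simulated data. Members and lists were chosen with earlier results of these data known. Named were the 12 largest changes each way (called, or else shifted by over 0.5 in both pairs), up to 3 genes per list by p, and 15 fixed genes; Bst2, Ifi47, Rsad2, Ifi27l2a, Rtp4, Zbp1, Oasl2, Stat2, Cenpa, Top2a, Kif2c, Foxm1, Rrm1, Marco, Ndn, Ptch1, Wdr6 and Gid4 were named after their values were seen. Alternatives changed the scaling, offset, dim filter, sex term, arrays, probe sets, weights, threshold and Gapdh ratio.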

Additional observations from a re-analysis of the deposited data

Results flagged for a closer look

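Mmp12 and Tnc shifted by over 0.5 on the log2 scale in opposite directions in the 2 sexes, and this difference between the pairs was not tested. Mmp12, the macrophage elastase, differed between moribund and 3 week lungs by 1.10 in the male pair and by -1.72 in the female pair. Tnc, tenascin C, differed by -0.80 in the male pair and by 1.16 in the female pair. With 1 pool per sex and stage, sex, dose and the pool cannot be told apart in either gene. Over all genes 204, or 2.25%, shifted in this way.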

How the results depend on the processing

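No gene passed in the comparison of moribund with 3 week lungs, but 2 did with the deposited scaling (Myo1f and Stk10), 2 with an offset of 1, 3 with the mean of the probe sets, 3 without the C3H/HeJ female 6 week array (chosen after seeing the data) and 10 at an adjusted p under 0.10. Leaving out 1 pool gave 1 to 52, the 52 without the moribund male pool. The 43 calls on later changes became 2 with the deposited scaling, 67 with 1 common median, 8 with no dim filter, 28 with the mean of the probe sets, 2 with array weights, 102 at an adjusted p under 0.10, 1 with the Gapdh ratio, 2 without that C3H/HeJ array and 4 to 109 with 1 pool left out. The genes shifted by over 0.5 in both pairs, 56 higher and 97 lower, became 27 and 154 with the deposited scaling, 35 and 151 with 1 common median, 93 and 154 with an offset of 1, 11 and 42 with an offset of 64, 115 and 157 with no dim filter, 37 and 60 with the dimmer 50% left out, and 1 and 8 beyond a shift of 1. Fn1 reversed to -0.067 with the deposited scaling and -0.035 with 1 median, Gpnmb to -0.12 and -0.093, and Cdkn1a to -0.16 and -0.13, with -0.11 for the mean of the probe sets and -0.054 with the Gapdh ratio, and Rrm1 to -0.0077 for the mean of the probe sets. With 1 pool left out, sign changes gave ranges of -0.23 to 0.011 for Col3a1, -0.16 to 0.28 for Fn1, -0.57 to 0.93 for Tnc, -0.024 to 0.88 for Timp1, -1.35 to 0.73 for Mmp12, -0.12 to 0.048 for Tgfb1, -0.20 to 0.98 for Saa3, -0.041 to 0.19 for Gpnmb, -0.20 to 0.23 for Cdkn1a, -0.19 to 0.041 for Sftpc and -0.51 to 0.79 for Stat2. The causes were not tested. The C57BL/6 pools were matched by sex and dose through their labels, and the model had a sex term and no dose term. Without the sex term 0 genes were called between moribund and 3 week lungs and 41 on later changes. Some settings also gave 0 calls between moribund and 3 week lungs, with a larger smallest limma adjusted p. It was 0.562 with only the C57BL/6 arrays and 0.346 with only the 4 arrays compared. With array weights it was 0.203, with the Gapdh ratio 0.221 and with no dim filter 0.117. The labels give no replicate numbers for any further pairing.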
